A study of Caenorhabditis elegans with 59 samples.

Results

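The abundant piRNAs of wild-type Caenorhabditis elegans were examined in small RNA of 4 genotypes kept for 50 generations. A piRNA was taken as abundant when its mean normalized read count over the 3 wild-type lines was 100 or more. This held for 823 of 15366 piRNAs in a table of 23411 small RNA features. The members were chosen by their wild-type values, so their contrasts with the wild type are descriptions without a test, and piRNA tests are kept to contrasts between mutants.

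The study sequenced small RNA and also mRNA from gravid adults, taken whole and grown at 20 °C on the E. coli strain OP50. Generation 50 had 3 lines of each genotype and 12 libraries of each RNA type. The triple mutant GR2070 carried prg-1(n4357) I together with mut-14(mg464) and smut-1(tm1301) V. Strain SX922 carried prg-1(n4357) I alone. Strain GR1948, called mut-14 smut-1 here, carried mut-14(mg464) and smut-1(tm1301) V and also unc-119(ed3) III, an allele the triple mutant lacks, so contrasts with it also contrast unc-119. The wild type was N2. Small RNA of 16 to 30 nt was treated with polyphosphatase, which lets RNAs with a 5-prime triphosphate enter the library beside piRNAs and miRNAs. Libraries held 4417660 to 13038182 counted reads, and values are deposited counts divided by 1 factor per library, called normalized reads.

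In C. elegans, piRNAs are germline small RNAs of 21 nt that begin with uridine and are also called 21U-RNAs. Most are transcribed as short capped precursors from many small genes on chromosome IV, trimmed at their ends, methylated and bound by the PIWI Argonaute PRG-1, which the mature piRNA needs for its stability. PRG-1 guided by a piRNA recognises a transcript and recruits RNA-dependent RNA polymerases, which copy it into secondary small RNAs called 22G-RNAs. MUT-14 and SMUT-1 are paralogous DEAD-box helicases of the mutator machinery that makes those secondary RNAs downstream of the piRNA. The deposited tables gave piRNA names without sequences, so members are described by name and by their gene order in RefSeq assembly WBcel235, where all 823 were found.

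The abundant piRNAs were the bulk of wild-type piRNA reads and were almost gone wherever prg-1 was mutated. They took 0.0196, 0.0181 and 0.0148% of counted reads in the 3 triple mutant lines, 0.0136, 0.0166 and 0.0113% in the prg-1 lines, 8.32, 7.59 and 4.75% in the mut-14 smut-1 lines and 4.24, 4.12 and 4.47% in the wild type. The triple mutant and prg-1 lines lay far below the other 6 lines, and every mut-14 smut-1 line lay above every wild-type line. The mean share was 0.0175 ± 0.00249% in the triple mutant and 6.89 ± 1.89% in mut-14 smut-1 (SD, n = 3 each), a 394-fold difference (two-sided exact permutation p = 0.1, the smallest p that 3 against 3 libraries can give). Between the triple mutant and prg-1, whose mean was 0.0138 ± 0.00269%, the ranges overlapped and the same exact test gave p = 0.2. Of 6 such exact tests run on library shares, none could give a p under 0.1. Counting error was small beside these gaps, since the widest Wilson 95% interval among the triple mutant and prg-1 libraries, that of triple mutant line 3, ran from 0.0137 to 0.0159%. Intervals cover counting error only, since PCR reads are not independent molecules. In RNA of whole animals, fewer cells of a type and less RNA per cell cannot be told apart from a level alone. The summed mRNA level of 12 oocyte and germline markers was 281510 to 328530 normalized reads in the triple mutant, 239630 to 327560 in the prg-1 lines, 180650 to 231050 in the mut-14 smut-1 lines and 266270 to 314630 in the wild type. The marker sum was above mut-14 smut-1 in every triple mutant line, and its prg-1 range overlapped the wild type. The part that the amount of germline plays in the piRNA shares was not tested.

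**Figure D1:**
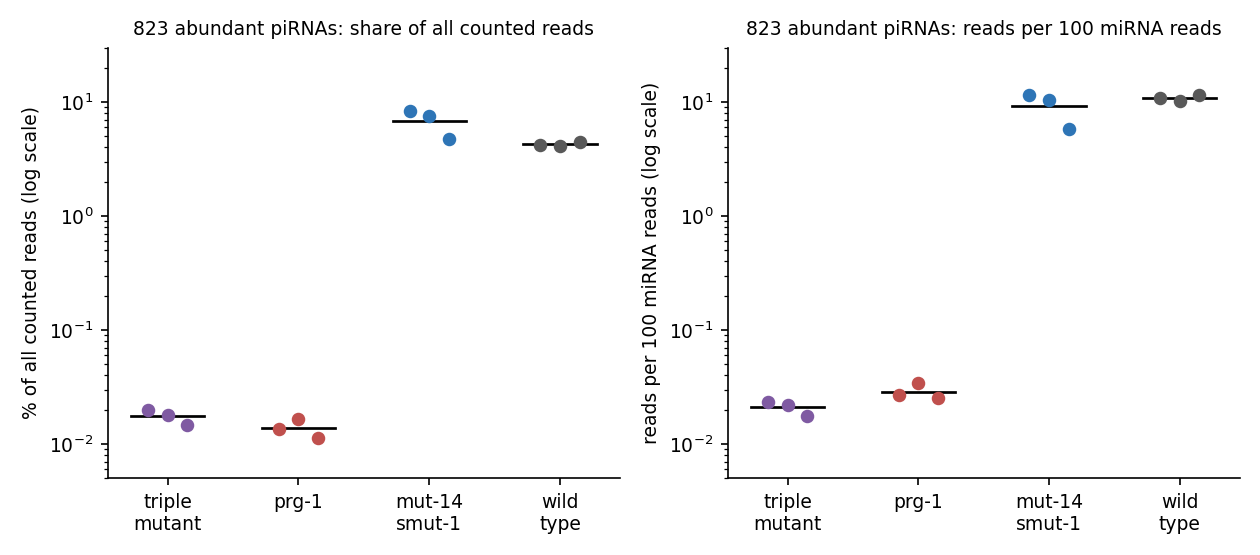
Reads of the 823 abundant piRNAs in each generation 50 library, as a percentage of all counted reads (left) and per 100 miRNA reads (right), both on log scales. Points are lines 1 to 3 of each genotype and bars are means; the triple mutant and prg-1 lines lie at 0.0113 to 0.0196% of reads, while mut-14 smut-1 and wild-type lines lie at 4.12 to 8.32%.

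The rest of the library differed strongly between genotypes. The miRNAs made up 82.4 to 84.7% of reads in the triple mutant, 44.8 to 51.2% in the prg-1 lines, 72.6 to 81.7% in the mut-14 smut-1 lines and 38.5 to 40.4% in the wild type. The gene class that the table calls mut held 1.09 to 1.25% of reads in the triple mutant, 31.5 to 36.3% in the prg-1 lines, 1.41 to 1.45% in the mut-14 smut-1 lines and 40.7 to 42.1% in the wild type. Measured per 100 miRNA reads, the abundant piRNAs gave 0.0232, 0.0219 and 0.0175 reads in the triple mutant, 0.0266, 0.0344 and 0.0252 in the prg-1 lines, 11.5, 10.4 and 5.81 in the mut-14 smut-1 lines and 10.8, 10.2 and 11.6 in the wild type. On that scale the triple mutant was 0.727 times prg-1, with no overlap (exact permutation p = 0.1), and mut-14 smut-1 overlapped the wild type except for its low line 3.

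Wild-type levels were spread over a wide range with a long upper tail. The mean level ran from 100.07 to 3978 normalized reads, with a median of 209.6 and quartiles of 141.8 and 404.6. The 10 highest piRNAs held 9.77% of the summed wild-type level and ranks 11 to 100 another 33.0%, and the members as a whole held 76.1 to 77.5% of all piRNA reads in the wild-type lines. Their level was steady between wild-type lines, with a median coefficient of variation of 7.05%. The coefficient reached 20% in 13 members and was largest for 21ur-4730, which had 211.9, 503.1 and 531.2 normalized reads in wild-type lines 1 to 3. Its wild-type line 1 was the low one, and in mut-14 smut-1 its lines were close together at 996.8, 927.9 and 1002 normalized reads.

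The threshold cut through a continuous distribution. Just inside it lay 21ur-12063, 21ur-775, 21ur-3850, 21ur-7605 and 21ur-1155 with wild-type means of 100.58, 100.32, 100.23, 100.18 and 100.07 normalized reads. Just outside it lay 21ur-13888, 21ur-6423, 21ur-2364, 21ur-3552 and 21ur-933, of which 21ur-13888 had 108.6, 101.02 and 89.9 normalized reads in the wild-type lines. The member 21ur-1155 had 309.8, 311.7 and 315.9 normalized reads in mut-14 smut-1, and the non-member 21ur-13888 had 388.2, 319.0 and 302.8.

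The most abundant piRNA was 21ur-5107. It had 11.5, 9.36 and 14.2 normalized reads in the triple mutant, 7.33, 9.25 and 6.86 in the prg-1 lines, 7553, 6329 and 5391 in the mut-14 smut-1 lines and 3822, 3955 and 4158 in the wild type. In deposited units the 4 genotypes fell into separate ranges, with mut-14 smut-1 highest and prg-1 lowest. The triple mutant and prg-1 ranges were parted only by 9.36 against 9.25, less than the 1.34 that a read is worth in triple mutant line 2. Per miRNA read the members as a whole went the other way between these genotypes, as given above. The log2 change of the triple mutant against mut-14 smut-1, on the scale of log2(normalized reads + 1), was -8.99 ± 0.168 (limma adjusted p = 3.43e-11). Against prg-1 it was 0.52 ± 0.168 (limma adjusted p = 0.0377), where ± gives the standard error.

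The third most abundant, 21ur-552, had 20.5, 14.7 and 22.4 normalized reads in the triple mutant, 13.6, 8.33 and 8.82 in the prg-1 lines, 6928, 6616 and 5558 in the mut-14 smut-1 lines and 3158, 3407 and 3445 in the wild type. In deposited units its triple mutant lines lay above its prg-1 lines, the closest at 14.7 against 13.6, and it had the highest residual of the 10 most abundant piRNAs in both. The seventh, 21ur-5432, which lies inside the potassium channel gene egl-23, had 5.12, 4.01 and 10.2 normalized reads in the triple mutant, 10.5, 5.55 and 6.86 in the prg-1 lines, 6585, 5976 and 4718 in the mut-14 smut-1 lines and 2681, 2830 and 2916 in the wild type. Here the triple mutant and prg-1 lines overlapped, with a log2 difference of -0.26 ± 0.281 (limma adjusted p = 0.594).

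Among the 10 most abundant piRNAs are overlapping pairs. 21ur-5107 overlaps 21ur-8974 and 21ur-3030 overlaps 21ur-15421 in the RefSeq annotation, so their values may not be separate measurements. Overlap was called where start positions lay within 20 nt, whatever the strand, and whether reads are shared was not tested. Of the 823 members, 434 overlap another annotated piRNA and 106 overlap another member. The pairs 21ur-172 with 21ur-11099 and 21ur-3378 with 21ur-12170 had identical values in all 12 libraries and each count as 1 measurement.

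The prg-1 lines retained very little of the set. Summed over members, prg-1 kept 0.426% of the wild-type level, and the median member kept 0.309%, or 0.381% when the 103 members without a read in any prg-1 line were set to the limit of 3 reads over the group. In 821 of 823 members all prg-1 lines lay below all wild-type lines, against 58.9% of the 10968 features tested, a share that includes all piRNAs tested, and no member lay above, against 23.4%. In the triple mutant all 823 members lay below the wild type in every line, against 66.7% of features, and 24.1% of features lay above. The piRNAs under the threshold that passed the filter on low values did the same, at 98.6% lower in prg-1 and 98.3% lower in the triple mutant. They may have passed only through the wild type or mut-14 smut-1, where they are high, so these shares are partly set by the filter. Levels left in prg-1 were low throughout, with a median of 0.698 normalized reads, and only 3 members averaged 10 or more. Because 1 read was worth 0.925 to 1.05 normalized reads in these libraries, the level of most single members in prg-1 rests on a few reads.

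The share left was somewhat larger at lower wild-type levels. In prg-1 the 10 most abundant piRNAs kept 0.240% of their summed wild-type level, ranks 11 to 100 kept 0.305%, ranks 101 to 300 kept 0.343% and ranks 301 to 600 kept 0.383%. Ranks 601 to 823 kept 1.44%, a group that holds both exceptions described below. The order of members in prg-1 followed the wild type loosely, with Spearman correlations across the 823 members of 0.448 to 0.545 between prg-1 and wild-type lines and of 0.333 to 0.346 between prg-1 lines. Members are not independent replicates and share each library's depth, so these are descriptions.

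Between the triple mutant and mut-14 smut-1, which differ in prg-1 and unc-119, the members could be tested. Of 823 members, 821 were lower in the triple mutant than in the mut-14 smut-1 lines and 0 higher (limma, Benjamini-Hochberg adjusted p under 0.05 over 10968 features), against 48.6% of all features called lower and 6.05% called higher. The median log2 change was -8.05, where the median over all features was -0.71. Of the 5327 features called lower, 821 were members and 3539 were other piRNAs. The share of 48.6% thus rests mostly on piRNAs, and the median over all features includes them. The median member kept 0.216% of its mut-14 smut-1 level, or 0.258% with the 94 members without a read in the triple mutant set to the limit of 3 reads over the group. At an unadjusted p of 0.05 the count was also 821, and edgeR's quasi-likelihood test and DESeq2 each called 821 lower. Among piRNAs under the abundance threshold, 3539 of the 3547 that passed the filter on low values were called lower, 99.8%, and 1 was called higher, 0.0282%. Such a piRNA may have passed only through mut-14 smut-1 or the wild type, so these shares cover only those that passed.

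**Figure D2:**
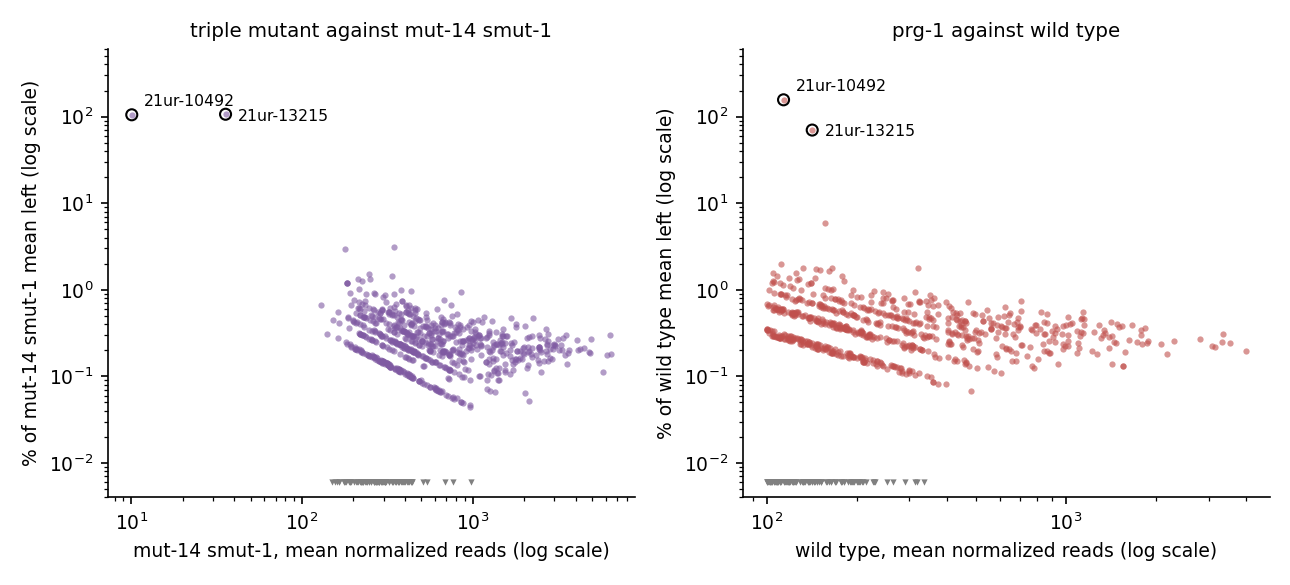
Level left without prg-1 for each abundant piRNA: the triple mutant as a percentage of mut-14 smut-1 (left) and prg-1 as a percentage of the wild type (right), plotted against normalized reads in mut-14 smut-1 or the wild type, all on log scales. Each point is 1 piRNA (group means of 3 lines), bands at low levels are whole numbers of reads, and grey triangles at the bottom are the 94 and 103 piRNAs without a read; 21ur-10492 and 21ur-13215 stand alone near 100%.

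The smallest p in this contrast was that of 21ur-5323, which lies inside the gene gtnt-37. It had 7.68, 8.02 and 6.11 normalized reads in the triple mutant, 3.14, 2.77 and 2.94 in the prg-1 lines, 4162, 3570 and 3163 in the mut-14 smut-1 lines and 1320, 1450 and 1390 in the wild type. All 4 genotypes were separate. The log2 change against mut-14 smut-1 was -8.78 ± 0.141 (limma adjusted p = 1.8e-11). Close behind came 21ur-3957, with 2.56, 2.67 and 2.04 normalized reads in the triple mutant against 1046, 1002 and 969 in mut-14 smut-1 (log2 change -8.21 ± 0.157, limma adjusted p = 3.43e-11).

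The triple mutant and prg-1 both carry prg-1(n4357) and differ in mut-14 and smut-1. Their differences lay mostly at 3 reads or fewer per library, with 0 included. limma called 62 members higher and 15 lower in the triple mutant, against 11.4% and 17% of all features and 0.367% and 0.395% of the piRNAs under the threshold that passed the filter, and 162 members had an unadjusted p under 0.05. As shares of members, both counts lay below the shares of all features and above those of the piRNAs under the threshold. The median log2 difference of members was 0.19, where that of all features was 0. Of the 62 members called higher, 31 had 3 reads or fewer in every library of both genotypes, as did 12 of the 15 called lower and 608 of all 823. The split turned round when libraries were scaled to their miRNA total, with 13 higher and 33 lower. edgeR on recovered reads called 18 higher and 1 lower, and DESeq2 20 and 1. Leaving out triple mutant line 3, the shallowest library, gave 116 calls in place of 77. Shares of all features were not computed for these alternatives or for miRNA scaling.

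Some of the more abundant members differed on more reads. 21ur-7174 had 10.2, 9.36 and 12.2 normalized reads in the triple mutant and 5.24, 1.85 and 4.90 in prg-1 (log2 difference 1.29 ± 0.273, limma adjusted p = 0.00348). 21ur-2934 had 19.2, 10.7 and 10.2 in the triple mutant and 5.24, 5.55 and 3.92 in prg-1 (log2 difference 1.24 ± 0.208, limma adjusted p = 7.06e-04). In both piRNAs the triple mutant lines lay above the prg-1 lines. In contrast, 21ur-5695 was called on 2.56, 2.67 and 4.07 normalized reads in the triple mutant and 0 in all prg-1 lines, and 21ur-5554 on 0 in all triple mutant lines and 3.14, 1.85 and 0.98 in prg-1. Those values are 3 reads or fewer per library, so no fold is given for them.

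The mut-14 smut-1 lines kept the abundant piRNAs, and whether their level was above or below the wild type depended on the scale. In deposited units 821 of 823 members had a higher mean in mut-14 smut-1 than in the wild type, with a median fold of 2.12 and 5th and 95th percentiles of 1.51 and 3.12. In 787 members all mut-14 smut-1 lines lay above all wild-type lines, against 57.9% of features, and 2 members lay below, against 27.3%. Those shares include all piRNAs tested, and of tested features other than piRNAs 38.4% lay above and 45.2% below. Of the 3547 piRNAs under the threshold that were tested, 85.4% lay above on this scale. Such a piRNA may have passed the filter only through mut-14 smut-1, where it is high, so that share is partly set by the filter. By wild-type level, without that filter, the median ratios were 2.32 for wild-type means of 10 to under 100 and 2.98 for means of 1 to under 10. These bands are cut on the wild-type mean that also divides the ratio. Low wild-type counts can therefore raise it, most of all in the lower band. With libraries scaled to their totals the median log2 ratio dropped to 0.70, against 1.08 as deposited, and 405 members were separate upwards. Scaled to miRNAs the direction reversed, with a median log2 ratio of -0.22, 19 members separate upwards and 167 downwards. The shares of all features above are in deposited units and were not computed on these other scales. Whether members differ from other features there was not tested. The part that the changed makeup of the libraries plays in the deposited ratio was not tested.

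The ratio in deposited units was also uneven between lines. The median ratio to the wild-type mean was 2.42, 2.14 and 1.73 in mut-14 smut-1 lines 1 to 3, and line 1 was the highest line for 685 members and line 3 the lowest for 672. The order of members stayed close to the wild type, with Spearman correlations of 0.872 to 0.930 between mut-14 smut-1 and wild-type lines, against 0.976 to 0.977 between wild-type lines.

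**Figure D3:**
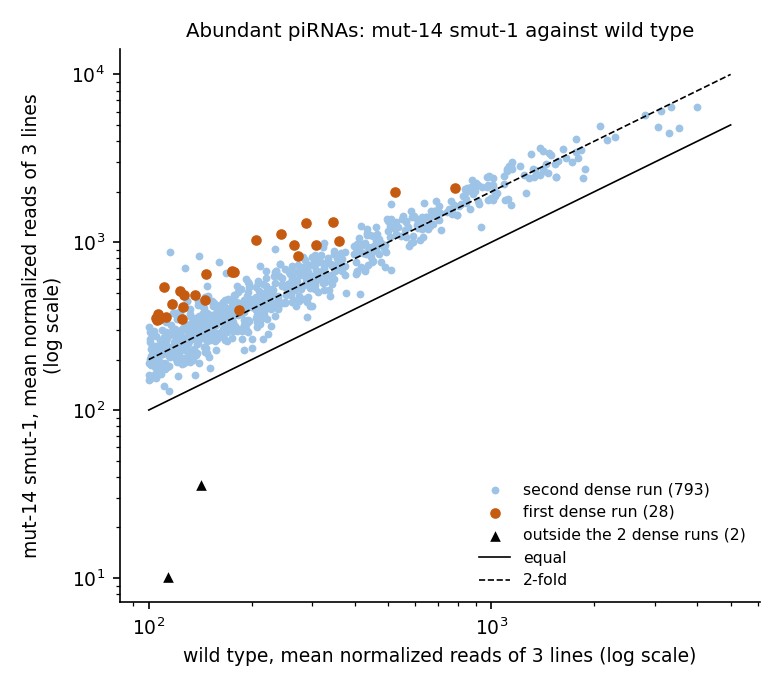
Mean level of each abundant piRNA in mut-14 smut-1 against the wild type, in deposited normalized reads (log scales, means of 3 lines). Colours give the gene-order runs on chromosome IV; nearly all points lie near the dashed 2-fold line, the 28 piRNAs of the first run lie above most others, and the 2 piRNAs outside the runs lie below the line of equality.

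Position on chromosome IV separated members in a way that does not depend on scaling. In RefSeq gene order, piRNAs form 2 long runs on IV in which at least 50% of the 50 neighbouring genes on each side are piRNA genes. The first run holds 2671 piRNAs in the table and the second 11521, with 1171 outside. Abundant piRNAs came almost wholly from the second run, which held 793 of them, 6.88% of its piRNAs, while the first run held 28, or 1.05%, and 2 lay outside. On IV the next piRNA in gene order was also a member for 90 of 822 members, or 10.95%. In 54 of those 90 pairs, however, the annotations overlap and may share reads. Among the 571 members whose next piRNA does not overlap, that piRNA was a member for 36, or 6.31%, close to the 6.88% of second-run piRNAs that were members. Of the members, 283 lie inside a protein-coding gene, 34.4%, a share close to that of the 10 to 100 band, 33.3%.

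The 28 piRNAs of the first run had larger ratios of mut-14 smut-1 to wild type than those of the second. Their median ratio to the wild type was 3.60, with a range of 2.14 to 5.001, against 2.10, with a range of 1.13 to 7.56, in the second run. All 28 lay above the second-run median and 24 above its 95th percentile, while 10 of 793 second-run members lay above the first-run median. The first-run median ratio divided by the second-run one was 1.77, 1.76 and 1.60 in lines 1 to 3, a quotient that no library factor can change. The same difference was seen in piRNAs under the threshold, at 3.77 in the first run against 2.21 in the second for wild-type means of 10 to 100. As a share of member reads, the first run took 3.36, 3.45 and 3.06% in the mut-14 smut-1 lines and 1.98, 1.90 and 2.04% in the wild type. In the triple mutant the share was 2.13, 2.68 and 3.53%, and it overlapped the 2.82, 1.35 and 3.41% of prg-1 (exact permutation p = 0.8).

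**Figure D4:**
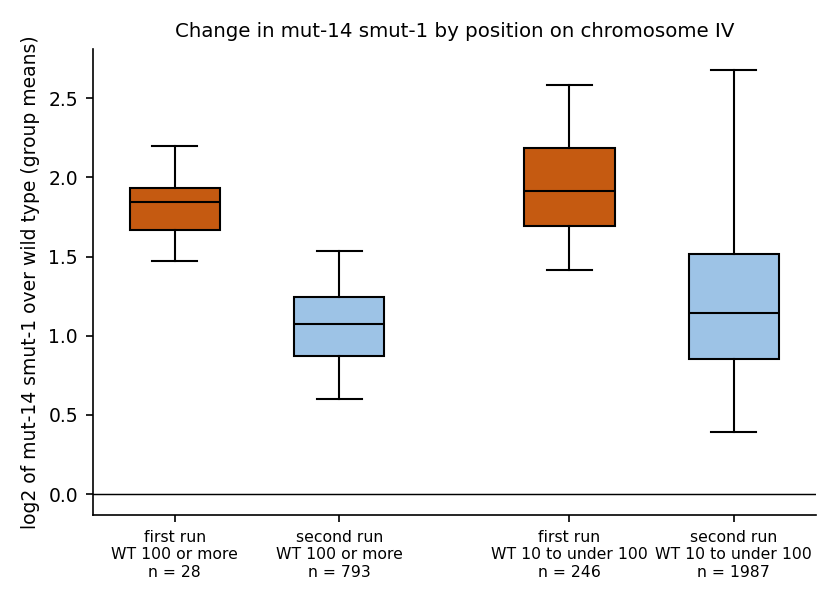
Change of piRNAs in mut-14 smut-1, as log2 of its mean over the wild-type mean in deposited units, by gene-order run on chromosome IV and by wild-type (WT) level. Boxes give quartiles and medians and whiskers the 5th and 95th percentiles over piRNAs; 1 piRNA of the 10 to 100 band without a read in mut-14 smut-1 is not drawn, and first-run medians lie above second-run medians in both bands.

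Examples of the first run show the size of this difference. 21ur-7255 had 1123, 958.4 and 999.3 normalized reads in the mut-14 smut-1 lines and 192.1, 187.3 and 236.6 in the wild type, a ratio of 5.001. 21ur-776 had 524.2, 558.2 and 542.1 in the mut-14 smut-1 lines and 105.4, 120.4 and 106.1 in the wild type, a ratio of 4.89. The most abundant piRNA of the first run, 21ur-3606, picked out after the values were seen, inside the chemoreceptor gene str-169, had 2487, 2192 and 1635 in the mut-14 smut-1 lines and 756.3, 745.3 and 856.3 in the wild type, a ratio of 2.68.

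The 3 largest ratios, however, were in the second run and followed another pattern over lines. 21ur-3377 had 672.2, 520.5 and 1424 normalized reads in the mut-14 smut-1 lines and 126.8, 107.7 and 111.5 in the wild type, a ratio of 7.56. 21ur-6409 had 705.9, 537.9 and 1236 in the mut-14 smut-1 lines and 150.8, 141.2 and 129.8 in the wild type. 21ur-137 had 568.9, 421.9 and 1101 in the mut-14 smut-1 lines and 140.9, 131.8 and 110.8 in the wild type. In these 3 piRNAs line 3 was the highest, whereas it was the lowest for most members. At the other end, 21ur-4533 had the smallest ratio in the second run, with 164.8, 110.2 and 113.7 normalized reads in mut-14 smut-1 overlapping 128.4, 97.7 and 116.9 in the wild type.

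Members 21ur-10492 and 21ur-13215, singled out after their values were seen, were the 2 whose prg-1 lines overlapped the wild-type lines. They were also the 2 members lower in mut-14 smut-1 than in the wild type and the 2 outside the dense runs. 21ur-10492 is the only member on chromosome II and lies inside the coding gene F15D4.5. It had 10.2, 13.4 and 8.14 normalized reads in the triple mutant, 6.28, 473.6 and 54.9 in the prg-1 lines, 12.9, 10.1 and 7.18 in the mut-14 smut-1 lines and 101.8, 115.1 and 125.0 in the wild type. The triple mutant and mut-14 smut-1 lines overlapped and were all below the wild type, with a log2 difference of 0.07 ± 1.07 (limma adjusted p = 0.963), and the prg-1 lines were spread over the whole range.

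The small RNA row of F15D4.5 itself, in the table's mut class, moved with this piRNA. It had 1039, 1006 and 1030 normalized reads in the triple mutant, 1034, 53148 and 5612 in the prg-1 lines, 942.2, 929.4 and 817.4 in the mut-14 smut-1 lines and 16186, 18444 and 17079 in the wild type. Line 2 of prg-1 was highest for both rows and line 1 lowest for both. Whether reads of the gene were counted for the piRNA was not tested.

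21ur-13215 lies on IV inside the pseudogene Y59H11AR.6. It had 25.6, 33.4 and 54.96 normalized reads in the triple mutant, 106.8, 111.9 and 79.4 in the prg-1 lines, 4.96, 8.70 and 93.3 in the mut-14 smut-1 lines and 108.0, 149.9 and 168.3 in the wild type. Its mut-14 smut-1 line 3 stood far above the other 2 lines, and the difference between the triple mutant and mut-14 smut-1 was 1.08 ± 0.785 on the log2 scale (limma adjusted p = 0.281). Without that line, 822 members were called in this contrast and 1 of them was higher in the triple mutant.

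**Figure D5:**
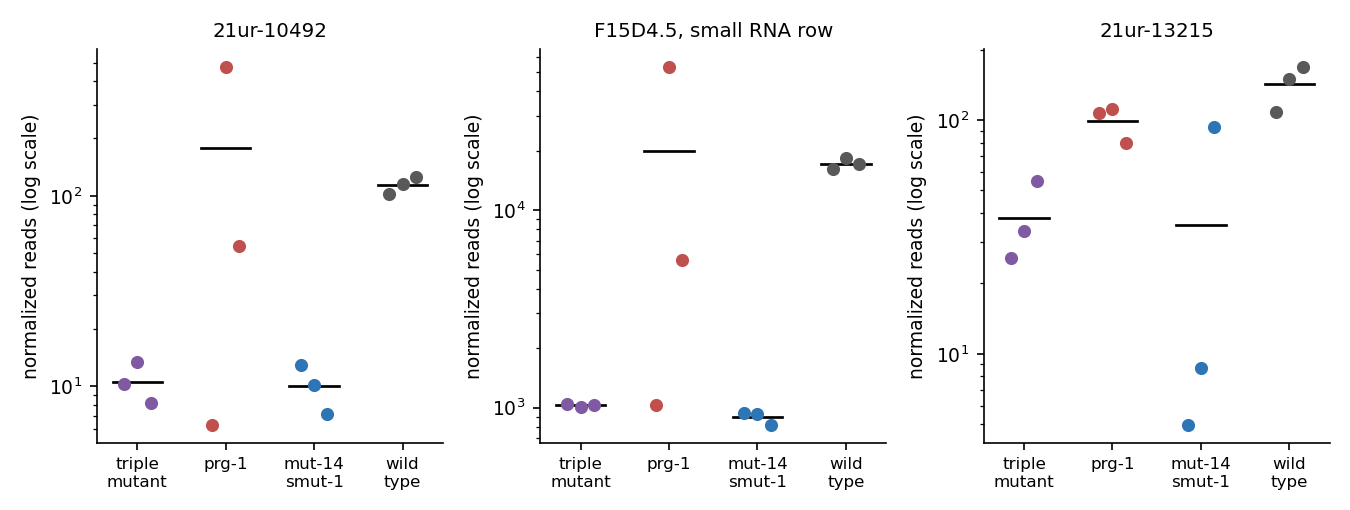
Normalized reads (log scales) of 21ur-10492, of the small RNA row of its host gene F15D4.5 and of 21ur-13215 in each generation 50 library. Points are lines 1 to 3 and bars are means; 21ur-10492 and F15D4.5 share the order of the prg-1 lines, and 21ur-13215 has 1 high line in mut-14 smut-1.

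These 2 piRNAs weighed on the sums. They took 8.47, 38.8 and 13.0% of member reads in prg-1 lines 1 to 3. Without them prg-1 kept 0.335% of the wild-type sum in place of 0.426%, and the summed level of the triple mutant was 1.47 times that of prg-1 in place of 1.195 times. The next highest in prg-1 relative to the wild type was 21ur-15656, inside talp-3, with 6.40, 13.4 and 12.2 normalized reads in the triple mutant, 8.38, 14.8 and 4.90 in the prg-1 lines, 431.9, 333.5 and 268.1 in the mut-14 smut-1 lines and 184.8, 148.5 and 138.6 in the wild type. It kept 5.95% of its wild-type level in prg-1, and 3 other annotated piRNAs overlap it.

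The mRNAs of the piRNA pathway were read in the generation 50 mRNA libraries of the same genotypes, using a list of which 53 genes were tested. The mutated genes came first, as a check of the labels. The prg-1 mRNA averaged 3570 ± 200 normalized reads in the triple mutant, 3815 ± 409 in the prg-1 lines, 10362 ± 737 in the mut-14 smut-1 lines and 10192 ± 514 in the wild type, so it was low in both strains with n4357. The mut-14 mRNA averaged 89.3 ± 11.4 in the triple mutant, 2030 ± 245 in the prg-1 lines, 84.6 ± 19.3 in the mut-14 smut-1 lines and 2069 ± 32.8 in the wild type. Between mut-14 smut-1 and the wild type the prg-1 mRNA differed by 0.02 ± 0.108 on the log2 scale (limma adjusted p = 0.893).

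Few pathway mRNAs changed in prg-1. Of the 53 genes, 2 were higher and 1, prg-1 itself, was lower than in the wild type, where 7.41% and 3.8% of 16328 genes were called, and leaving out prg-1 line 1 gave 5 calls. None of 9 piRNA transcription genes and none of 10 genes of 5-prime processing and the PETISCO complex passed the test (limma), and their median log2 changes were -0.19 and 0.06. Of the genes that rose, parn-1 is the exonuclease that trims the 3-prime end of piRNA precursors. It had 3807, 2328 and 3952 normalized reads in prg-1 and 955.9, 871.9 and 814.6 in the wild type, with no overlap (log2 change 1.90 ± 0.214, limma adjusted p = 5.05e-04). The other was rde-11, which promotes amplification of secondary small RNAs, with 1714, 2109 and 2053 in prg-1 and 958.7, 1136 and 1058 in the wild type (log2 change 0.90 ± 0.149, limma adjusted p = 0.00558).

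Small RNAs that map to the pathway genes themselves also differed. Of these genes, 4 have a row in the table's mut class: parn-1, rde-11, smut-1 and prde-1, the last a piRNA transcription factor that also has an identical row in the csr class. All 4 rows lay lower in each of the triple mutant, prg-1 and mut-14 smut-1 than in the wild type without overlap, where 45.6, 32.4 and 45.2% of the 6598 tested features other than piRNAs did. The mut class as a whole also held a smaller share of reads in each of these genotypes, as given above, so the falls are not particular to these genes. No such share was computed for the mut class alone, and smut-1 is itself mutated in the triple mutant and mut-14 smut-1. Small RNA of parn-1 was at 706.5, 670.0 and 732.8 normalized reads in the triple mutant, 415.7, 221.1 and 390.0 in the prg-1 lines, 672.2, 729.3 and 619.9 in the mut-14 smut-1 lines and 3076, 3420 and 3320 in the wild type. In prg-1, line 2 had the lowest parn-1 small RNA and also the lowest parn-1 mRNA. Of the 37 pathway genes with a row in the csr class, 27 lay higher and 5 lower in the triple mutant than in the wild type, 21 higher and 7 lower in prg-1, and 26 higher and 6 lower in mut-14 smut-1. The lower rows include in each genotype the prde-1 row already counted in the mut class. In the triple mutant and mut-14 smut-1 they also include mut-14, which is itself mutated there. Of the tested features other than piRNAs, 40%, 38.9% and 38.4% lay higher in these genotypes. Those features include the mut class, and no share was computed for the csr class alone, so the rises cannot be called particular to pathway genes. The counts are in deposited units and were not repeated with libraries scaled to miRNAs, a scale on which the piRNA ratio of mut-14 smut-1 to wild type reversed.

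In mut-14 smut-1, parn-1 (1951, 1608 and 2639 normalized reads, log2 change against the wild type 1.20 ± 0.214, limma adjusted p = 0.00348), rde-11 (0.57 ± 0.149, limma adjusted p = 0.0166) and prde-1 (0.54 ± 0.180, limma adjusted p = 0.0433) were higher than in the wild type. There, 12 genes were lower: mut-14 and smut-1 themselves, erh-2, tofu-6, ife-3 and slfl-4 of 5-prime processing, rde-8, nyn-1 and rde-10 of secondary small RNA production, and the Argonaute or germ granule genes wago-4, csr-1 and deps-1. For tofu-6, part of the PETISCO complex that processes precursors, the values were 2037, 1715 and 2579 normalized reads in the mut-14 smut-1 lines and 3382, 3156 and 3021 in the wild type (log2 change -0.61 ± 0.146, limma adjusted p = 0.0117). Of all genes, 16.5% were called higher and 11.3% lower, set against 3 and 12 of the 53. The count of 15 fell to 7 without wild-type line 1 and to 8 without line 3.

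In the triple mutant 4 genes were higher than in mut-14 smut-1, wago-1, wago-4, deps-1 and znfx-1, and prg-1 was lower, against 1.41% and 0.545% of all genes. For wago-4 the values were 4319, 5206 and 4083 normalized reads in the triple mutant and 2382, 1829 and 2935 in mut-14 smut-1 (log2 change 0.95 ± 0.180, limma adjusted p = 0.0258). The count of 5 fell to 1 without triple mutant line 1, 2 or 3 and to 2 without mut-14 smut-1 line 1, and rose to 9 and 11 without mut-14 smut-1 lines 2 and 3. Against prg-1 the triple mutant had 0 genes higher and 2 lower, mut-14 and smut-1, where 0.416% and 0.294% of genes were called (limma).

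Some markers of the germline also differed between genotypes. Of the 12 oocyte and germline markers, whose sums stand beside the library shares, none was at 0 in all lines of a genotype. In mut-14 smut-1, 7 of the 12 were lower than in the wild type (limma), against 11.3% of all genes. In the triple mutant 7 were higher than in mut-14 smut-1, against 1.41% of all genes. None was called in prg-1 against the wild type or in the triple mutant against prg-1. Of 6 sperm markers, 3 were higher in prg-1 and 3 in mut-14 smut-1 than in the wild type, against 7.41% and 16.5% of all genes. Their summed levels were 1293 to 2885 in the triple mutant, 919 to 2649 in the prg-1 lines, 1072 to 2373 in the mut-14 smut-1 lines and 6.95 to 982 in the wild type. The part of these shifts in the pathway mRNA values was not tested. Of 5 body wall muscle markers, 2 were higher in mut-14 smut-1 than in the wild type, against 16.5% of all genes. None of 6 markers of the yolk-producing intestine passed the test in any of the 4 contrasts (limma).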

How the data were processed

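Small RNA and mRNA of generation 50 were used, with 12 libraries each. The deposited small RNA and mRNA values are signal, that is counts the authors scaled by library. For small RNA the factors equal median-ratio size factors recomputed here, and for mRNA not all values were whole multiples of 1 step, so its factors were not recovered. For small RNA, 100% of values were whole reads within 0.01 of a read, so reads were recovered from the deposited values. The class names mut, csr and alg are the table's own. Neither the aligner, the counting rule nor the build is given in the sources used here. The members and gene lists were chosen with earlier results of these data known.

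Features with 10 or more in at least 3 libraries were tested with limma 3.58.1 (R 4.3.3) on log2(value + 1), with 1 mean per genotype over all 12 libraries, a mean-variance trend and Benjamini-Hochberg adjustment over 10968 small RNA features or 16328 genes. Such fold changes understate those of low features. Calls had an adjusted p under 0.05. The lines are replicates by label, and nothing says they came from separate cultures, so p-values measure the spread between these lines. Library shares were compared by exact permutation. edgeR 4.0.16 and DESeq2 1.42.0 on recovered reads, other scalings, filters and pseudocounts, and leaving out each library were alternatives.

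Gene order, chromosome and overlap came from RefSeq WBcel235 by name, which matched 15363 of 15366 piRNAs. Start and end positions in RefSeq set the gene order, the host genes and the overlaps, without regard to strand. No coordinates are printed, and no sequences were used. The named piRNAs were those with the highest wild-type means, nearest the threshold, with the highest or lowest ratio of mut-14 smut-1 to wild type, with the highest level in prg-1 or the triple mutant, with the smallest p in either tested contrast, or with the largest wild-type coefficient of variation, plus every called pathway gene. Pathway genes tofu-3, mut-2, mut-8 and wago-3 were not matched in the mRNA table. Python 3.11.15 with pandas 2.3.3, numpy 2.4.6, scipy 1.17.1 and matplotlib 3.10.9 was used.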

Additional observations from a re-analysis of the deposited data

How the results depend on the processing

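In the triple mutant against mut-14 smut-1, 821 abundant piRNAs were called lower under every alternative run. The count in both directions was 821 to 822 when 1 library was left out, with 1 member called higher without mut-14 smut-1 line 3. The count between the triple mutant and prg-1, 77, was 46 with miRNA scaling, 19 with edgeR, 21 with DESeq2, 13 with a pseudocount of 10, 19 with only those groups in the fit and 81 to 116 when 1 library was left out.

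Scaling to miRNAs reversed the median log2 ratio of mut-14 smut-1 to wild type, to -0.22 against 1.08 as deposited (0.70 with library totals; 0.97 to 1.19 with 1 library left out). It reversed the log2 ratio of shares for mut-14 smut-1 over wild type, to -0.24 against 0.69, and for the triple mutant over prg-1, to -0.46 against 0.34. For prg-1 against wild type the median was -9.03 with miRNA scaling, against -8.34, and the log2 share ratio was -8.56 with miRNA scaling and -7.88 with median-ratio or deposited scaling, against -8.27. Members higher in every mut-14 smut-1 line numbered 405 with library totals and 19 with miRNA scaling, chosen after seeing the data, as was leaving out 21ur-10492 and 21ur-13215, which moved the sum ratio of the triple mutant to prg-1 to 1.47 and the percentage left in prg-1 to 0.335. No share of all features was computed beside the counts of 405 and 19. The cause of these shifts was not tested.

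For pathway mRNAs, mut-14 smut-1 against wild type gave 6 calls with only those groups in the fit and 7 to 20 with 1 library left out. The triple mutant against mut-14 smut-1 gave 2 calls with library totals, 1 with only those groups and 1 to 11 with 1 library left out, and prg-1 against wild type gave 3 to 5.

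Line numbers were not taken as pairs. Of same-number correlations of deviations between genotypes, 1 of 18 in small RNA and 6 of 18 in mRNA exceeded 0.1, with maxima of 0.125 and 0.328. They were not set beside correlations of different line numbers, so they cannot settle whether libraries are paired by line. With line as a replicate block the counts were 821 and 76 for members, and for pathway mRNAs 12 in mut-14 smut-1 against wild type and 2 in the triple mutant against mut-14 smut-1. In prg-1 and the triple mutant most members lie at 3 reads or fewer per library, which limits any comparison between single piRNAs there. Members without a read numbered 311 to 375 in the prg-1 libraries and 264 to 463 in the triple mutant libraries.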
